A study of Homo sapiens with 9 samples.

Results

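The 10 immediate early genes FOS, FOSB, JUN, JUNB, EGR1, EGR3, ARC, IER2, ATF3 and DUSP1 were followed by mRNA sequencing in human neuroepithelium that had been bent for a day. They were chosen by gene symbol, and each symbol matched 1 Ensembl gene among the 62710 in the count table. The cells were H9, an established line of human embryonic stem cells with the labelled genotype WT, grown on Matrigel-coated plates of the silicone polydimethylsiloxane. In every group they spent 72 h in the pluripotency medium mTeSR1 and then 48 h in N2B27 medium with SB431542 and LDN, the inhibitor pair known as dual SMAD inhibition, which directs pluripotent cells to neural fate. For the last 24 h, still under both inhibitors, the plate was curved into a concave shape (3 libraries), curved into a convex shape (3 libraries) or left flat as the control (3 libraries). All libraries therefore come from 1 cell line, and the flat cultures received the inhibitors too. The design asks whether either curvature, or its direction, changes expression. For these genes the only time measured was 24 h after curving began.

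Immediate early genes are transcribed within minutes of a stimulus, by factors already present in the cell, and need no new protein first. Growth factors, membrane depolarisation, calcium entry and mechanical stretch all act on them through MAP kinases, the serum response factor SRF with its ternary complex partners, and the cAMP-responsive factor CREB. Their mRNAs are typically short-lived, so a pulse after a brief stimulus fades within hours, and a sample taken later reads the standing level. FOS, FOSB, JUN, JUNB and ATF3 encode leucine zipper proteins that pair into AP-1 and related dimers. EGR1 and EGR3 encode zinc finger transcription factors, ARC a cytoskeleton-associated protein of synapses, IER2 a nuclear regulator, and DUSP1 a phosphatase that switches MAP kinases off.

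The start regions of FOS, EGR1 and DUSP1 are shown as examples, and that of ATF3 because it is the member with a result by replicate number. Each line runs from 250 bases before to 50 bases after the RefSeq transcription start (GRCh38.p14), and capitals mark a match to a CArG box, the site of SRF, or to the CREB site TGACGTCA. The FOS window lies at chr14:75278578-75278877 on the plus strand, that of EGR1 at chr5:138465229-138465528 on the plus strand, that of DUSP1 at chr5:172771146-172771445 on the minus strand, and the first of 2 for ATF3 at chr1:212565157-212565456 on the plus strand. The second ATF3 window, not printed, lies at chr1:212614768-212615067 and held TATAAA at -230 to -225. Which of the 2 starts these cells use was not tested.
FOS: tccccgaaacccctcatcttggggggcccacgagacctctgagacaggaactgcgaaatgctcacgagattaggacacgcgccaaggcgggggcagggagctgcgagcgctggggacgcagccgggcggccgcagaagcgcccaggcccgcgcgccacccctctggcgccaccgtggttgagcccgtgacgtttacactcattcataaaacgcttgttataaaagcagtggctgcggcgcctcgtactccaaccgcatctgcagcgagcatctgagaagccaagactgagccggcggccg
EGR1: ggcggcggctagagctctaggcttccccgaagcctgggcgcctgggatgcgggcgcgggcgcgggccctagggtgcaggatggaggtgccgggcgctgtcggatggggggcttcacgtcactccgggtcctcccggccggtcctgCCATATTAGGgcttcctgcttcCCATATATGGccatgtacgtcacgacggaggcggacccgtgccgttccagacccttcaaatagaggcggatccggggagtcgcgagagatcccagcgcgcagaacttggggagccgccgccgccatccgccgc
DUSP1: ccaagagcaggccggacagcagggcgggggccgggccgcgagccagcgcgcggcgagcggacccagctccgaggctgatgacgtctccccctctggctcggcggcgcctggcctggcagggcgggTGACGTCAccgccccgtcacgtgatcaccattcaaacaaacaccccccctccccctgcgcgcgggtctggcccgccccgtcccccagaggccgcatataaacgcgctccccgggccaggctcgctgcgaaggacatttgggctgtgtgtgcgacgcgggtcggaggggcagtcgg
ATF3: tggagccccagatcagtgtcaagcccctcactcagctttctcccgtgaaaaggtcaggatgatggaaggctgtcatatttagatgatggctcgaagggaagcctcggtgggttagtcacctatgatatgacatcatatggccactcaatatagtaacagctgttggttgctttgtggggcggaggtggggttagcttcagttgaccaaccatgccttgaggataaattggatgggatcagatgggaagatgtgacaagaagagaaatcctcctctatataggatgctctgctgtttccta

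Entries were found for 8 of the 10 members, in 9 windows, with EGR3 and ARC among the missing. EGR1 held 2 CArG boxes, CCATATTAGG at -105 to -96 and CCATATATGG at -83 to -74 from the start, and no other member's window held one. Across all 34943 windows of this length, 1.3% held a CArG box. DUSP1 held the CREB site TGACGTCA at -125 to -118, against 1.84% of all windows. The AP-1 site TGANTCA was in none of the 9 windows and in 7.72% of all. TATAAA stood in 5 of the 9 windows, against 11.6% of all, and at -33 to -25 in FOS, FOSB, JUNB and DUSP1. Both strands were searched, and these matches describe letters in the windows, not binding. Only exact matches inside the windows were counted. A variant site or one farther from the start would be missed, so a window without a match does not show that a route is absent.

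The 9 libraries held 49420082 to 64763412 counted reads each. All 10 members passed the low-count filter that kept 23075 genes for testing. Replicates of every group differed far beyond counting noise, with a chi-square per degree of freedom of 19.7 to 284.6, the highest between flat replicates 2 and 3. The labels do not tie the replicates to separate cultures, and the p-values below measure only the spread between these samples, which may be technical. The highest markers of pluripotency and of neuroectoderm were abundant: LIN28A averaged 1623 CPM (counts per 1000000 counted reads, scaled by the TMM method), SOX2, which marks both states, 682 CPM and NES 936 CPM, while 4 of 18 markers in each of these lists averaged under 1 CPM. Neuron markers were lower, with MAP2 at 117 CPM and DCX at 23.7 CPM. Markers listed for other cell types were present too, led by COL1A1 at 836 CPM and the keratin gene KRT8 at 303 CPM. As these are bulk samples, fewer cells expressing a gene and less RNA per cell cannot be told apart.

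All members were detected in all 9 libraries, but at levels that spanned a wide range. Per kilobase of median transcript length, IER2 was highest at 10.7 ± 2.8 CPM per kb (SD, n = 9 libraries), a level above 68.9% of the genes with a length. JUN followed at 5.46 ± 1.5, ATF3 at 5.38 ± 2.74 and EGR1 at 3.97 ± 1.94 CPM per kb. ARC had 1.97 ± 0.689, JUNB 1.87 ± 0.407, DUSP1 1.64 ± 0.463 and EGR3 1.24 ± 1.13 CPM per kb. FOS stood near the bottom, with 0.832 ± 0.242 CPM per kb, and FOSB was lowest with 0.317 ± 0.069 CPM per kb, above only 16% of genes. JUN mRNA was thus more abundant per length than FOS and FOSB mRNA, and protein was not measured. Neighbours in this order from JUN to EGR1, from ARC to EGR3, and EGR3 and FOS differed by less than the larger of their SDs. Only IER2 from JUN, and FOS from FOSB, were neighbours whose library ranges did not overlap. With the longest transcript as length, EGR1 passed ATF3 and FOS passed EGR3.

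**Figure D1:**
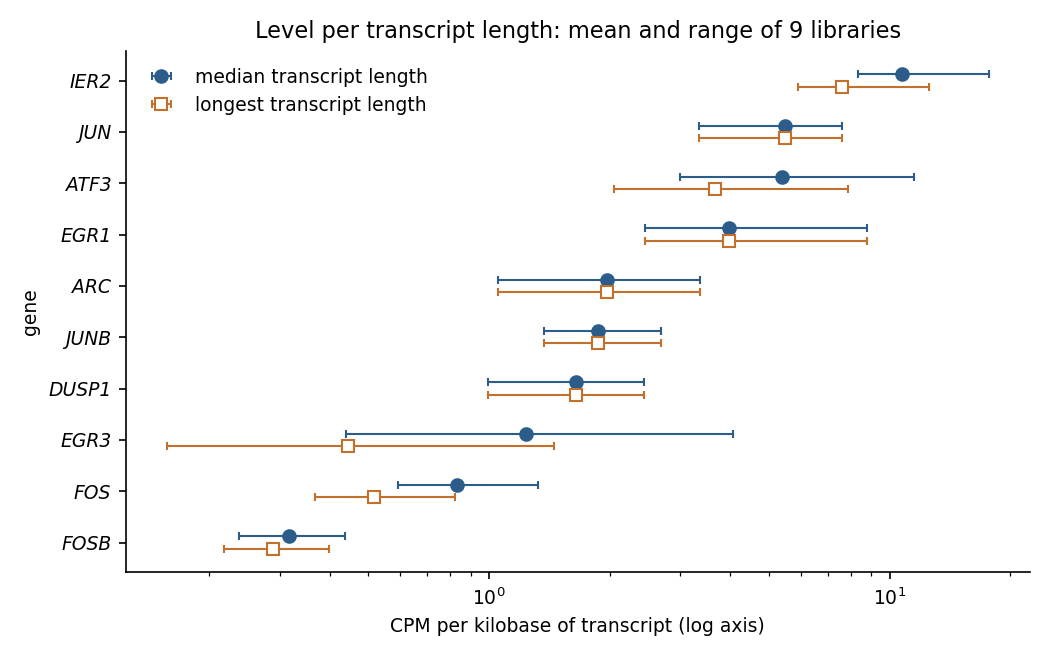
Level of each gene in CPM per kilobase of transcript on a log axis, with the mean and the lowest to highest of 9 libraries, for median transcript length (circles) and longest transcript length (squares). IER2, at 10.7 CPM per kb by median length, is at the top and FOSB, at 0.317 CPM per kb, at the bottom.

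None of the 10 members was called different between any pair of plate shapes by edgeR's quasi-likelihood test at a Benjamini-Hochberg adjusted p under 0.05. The same held for all genes: 0% were called for concave against flat, and 0% in each of the other pairs. At an unadjusted p under 0.05, 0 members passed in any pair, beside 4.54% of all genes (1047) with concave over flat, 9.25% (2135) with convex over flat and 0.282% (65) with concave over convex. The test of any difference among the 3 shapes also called 0% of genes, and 0 members had an unadjusted p under 0.05 there, against 3.89% of all genes. The members' log2 fold changes ran between -0.49 and 0.50 for concave against flat, with 4 above 0 and a median of -0.10 (all genes 0.01). The values ran between -0.46 and 1.20 for convex against flat, with 6 above 0 and a median of 0.26 (all genes 0.01). For concave against convex they ran between -0.71 and 0.13, with 2 above 0 and a median of -0.27 (all genes 0.00). The 2 comparisons with flat share the flat libraries, so their values are not independent.

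**Figure D2:**
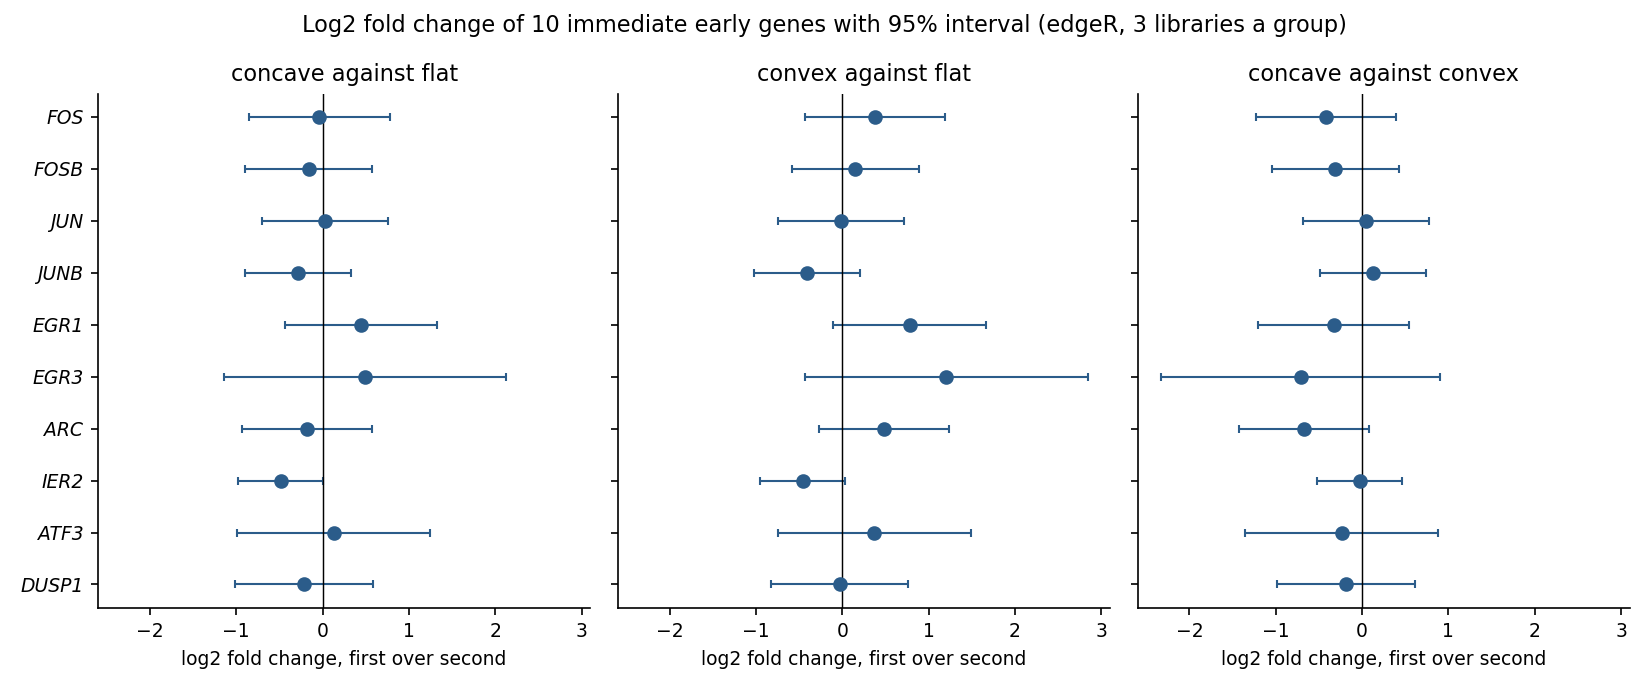
Log2 fold change of each gene in each pair of plate shapes, the first named over the second, with its 95% interval (edgeR, 3 libraries a group). All 30 intervals include 0, and those of EGR3 are the widest.

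FOS, the founding AP-1 subunit and the classic marker of recent stimulation, had few reads in each library. It had 76, 52 and 52 reads in concave replicates 1 to 3, 54, 92 and 101 in convex replicates 1 to 3, and 64, 55 and 46 in flat replicates 1 to 3. In scaled units that was 1.11, 0.797 and 1.08 CPM in concave, 0.795, 1.43 and 1.78 CPM in convex, and 1.1, 1.16 and 0.803 CPM in flat. The highest library was convex 3 and the lowest convex 1, so the convex group spanned the whole range of the other groups. FOS differed by -0.04 on the log2 scale with concave over flat (95% interval -0.85 to 0.78), by 0.38 with convex over flat (-0.43 to 1.20) and by -0.42 with concave over convex (-1.23 to 0.39). With single libraries left out, the second ran between 0.13 and 0.64 and the third between -0.67 and -0.16. Over the 9 libraries its coefficient of variation was 29%, where counting error alone would give 12.3%. FOSB, its close relative, ranged between 0.821 CPM in flat 3 and 1.5 CPM in convex 2. Its group means were 0.975 ± 0.139 CPM in concave, 1.21 ± 0.252 CPM in convex and 1.09 ± 0.319 CPM in flat (SD, n = 3 each), and the ranges of the 3 groups overlapped. FOSB was lower in concave than in convex at each replicate number, by 0.09 to 0.44 on the log2 scale. The share of all genes with the same sign at each number was not counted.

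JUN, which pairs with FOS proteins and with itself, had nearly equal means in the 3 shapes. These were 19.7 ± 4.5 CPM in concave, 19.1 ± 7.07 CPM in convex and 19.3 ± 6.47 CPM in flat (SD, n = 3 each). Within each shape the libraries were far apart: 14.6 to 23.1 CPM in concave, 13.3 to 27.0 CPM in convex and 11.8 to 23.1 CPM in flat. The 95% interval for concave against flat was -0.70 to 0.76 on the log2 scale, and for convex against flat -0.75 to 0.71. JUNB, a weaker activator that can restrain JUN, had 4.1, 2.5 and 3.15 CPM in concave replicates 1 to 3, 3.03, 2.99 and 2.9 CPM in convex, and 3.85, 4.88 and 3.14 CPM in flat. JUNB was the 1 member whose groups did not overlap in a comparison, with all 3 convex libraries below all 3 flat ones. Across all genes, 7.76% showed that pattern. Full separation upward was seen in 3.78% of genes with concave over flat, 8.91% with convex over flat and 1.49% with concave over convex, and downward in 2.96% for concave against flat and 2.08% for concave against convex, each beside 0 of the 10 members. Its log2 fold change was -0.41 (SE 0.28) for convex against flat, with an adjusted p of 0.571 by edgeR, and -0.24 without flat 2.

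EGR1, a zinc finger factor with SRF sites in its promoter and a frequent readout of growth factor signalling, had one library far above the rest. It measured 14.1, 13.6 and 9.86 CPM in concave replicates 1 to 3, 9.9, 27.5 and 9.77 CPM in convex, and 11.99, 7.83 and 7.66 CPM in flat. Convex 2 held nearly all of the convex excess, and the other convex libraries lay within the flat range. EGR1 was higher in concave than in flat at each replicate number, by 0.23, 0.80 and 0.36 on the log2 scale, but the groups overlapped. For this pattern, seen in EGR3 too, the share over all genes was not counted. Concave and flat libraries of number 2 did not deviate together over all genes (r = 0.00829), while at numbers 1 and 3 r was 0.337 and 0.305. Whether these 2 shapes are paired by number is therefore not settled. The fitted log2 fold change for concave against flat was 0.45 (SE 0.40), with an adjusted p of 0.85 by edgeR. For convex against flat it was 0.78 (95% interval -0.10 to 1.66) with an adjusted p of 0.513 by edgeR, and 0.09 without convex 2.

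EGR3, a relative that EGR1 and neuronal activity can induce, was highest in the same library. Its values were 2.51, 1.86 and 0.808 CPM in concave replicates 1 to 3, 1.41, 6.31 and 0.757 CPM in convex, and 1.84, 1.16 and 0.681 CPM in flat. The highest library exceeded the lowest 9.26-fold, the widest span of the 10 members, and the coefficient of variation over the 9 libraries was 91%. Set beside flat libraries of the same number, whose pairing is not settled, concave libraries were higher by 0.24 to 0.68 on the log2 scale. The groups overlapped, and the adjusted p was 0.914 by edgeR. The log2 fold change for convex against flat was 1.20 (SE 0.74), with an adjusted p of 0.547 by edgeR, and turned to -0.19 without convex 2. NAB1 and NAB2, co-repressors that bind EGR proteins, were not called by shape or by number by edgeR, save for 1 of them by number without flat 2. NAB2 averaged 27.8 ± 4.24 CPM in concave, 28.2 ± 4.08 CPM in convex and 30.7 ± 3.74 CPM in flat (SD, n = 3 each).

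ARC, whose transcription in neurons follows synaptic activity, was measurable in these early cells. It had 3.11, 5.37 and 5.55 CPM in concave replicates 1 to 3, 4.43, 9.92 and 7.94 CPM in convex, and 4.76, 4.88 and 6.27 CPM in flat. Convex 2 and convex 3 were the highest libraries of all, while convex 1 lay below every flat library. ARC was lower in concave than in convex at each number, by 0.51, 0.88 and 0.52 on the log2 scale, but the ranges of the groups overlapped. How many of all genes were lower at each number was not counted. The log2 fold change for concave against convex was -0.67 (95% interval -1.42 to 0.08), with an unadjusted p of 0.0758 and an adjusted p of 1 by edgeR, and ranged between -0.93 and -0.39 when single libraries were left out. The 14 listed neuron markers, of which 13 passed the filter, summed to 258 to 353 CPM in concave, 275 to 320 CPM in convex and 269 to 300 CPM in flat, and 2 of them averaged under 1 CPM. No neuron marker was at 0 in every library, and the part of such cells in the ARC values was not tested.

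IER2 was the most abundant member and the one with the narrowest intervals. It measured 19.0, 17.3 and 22.3 CPM in concave replicates 1 to 3, 18.2, 20.5 and 21.1 CPM in convex, and 24.3, 36.8 and 21.1 CPM in flat. Flat 2 stood far above the other libraries, and flat 3 lay within the range of both curved groups. The log2 fold change was -0.49 for concave against flat (95% interval -0.98 to 0.00), with an adjusted p of 0.841 by edgeR, and -0.46 for convex against flat (-0.95 to 0.03), with an adjusted p of 0.513 by edgeR. Without flat 2 these came to -0.21 and -0.19. Concave and convex differed by -0.03 (-0.52 to 0.46).

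DUSP1, which removes phosphate from MAP kinases and is itself induced by their activity, had 2.91, 2.01 and 4.14 CPM in concave replicates 1 to 3, 2.37, 3.01 and 4.93 CPM in convex, and 4.07, 2.86 and 3.58 CPM in flat. The curved groups spanned the flat values on both sides. Its log2 fold change was -0.22 (95% interval -1.02 to 0.58) for concave against flat and -0.03 (-0.83 to 0.77) for convex against flat. ATF3, a stress-responsive repressor of the same leucine zipper class, had 7.58, 4.16 and 10.0 CPM in concave replicates 1 to 3, 5.09, 4.56 and 16.0 CPM in convex, and 5.75, 4.95 and 9.11 CPM in flat. In each shape the replicate numbered 3 was the highest and the one numbered 2 the lowest. The log2 fold change of ATF3 was 0.13 (-0.98 to 1.25) for concave against flat and 0.37 (-0.75 to 1.49) for convex against flat, the second turning to -0.45 without convex 3.

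**Figure D3:**
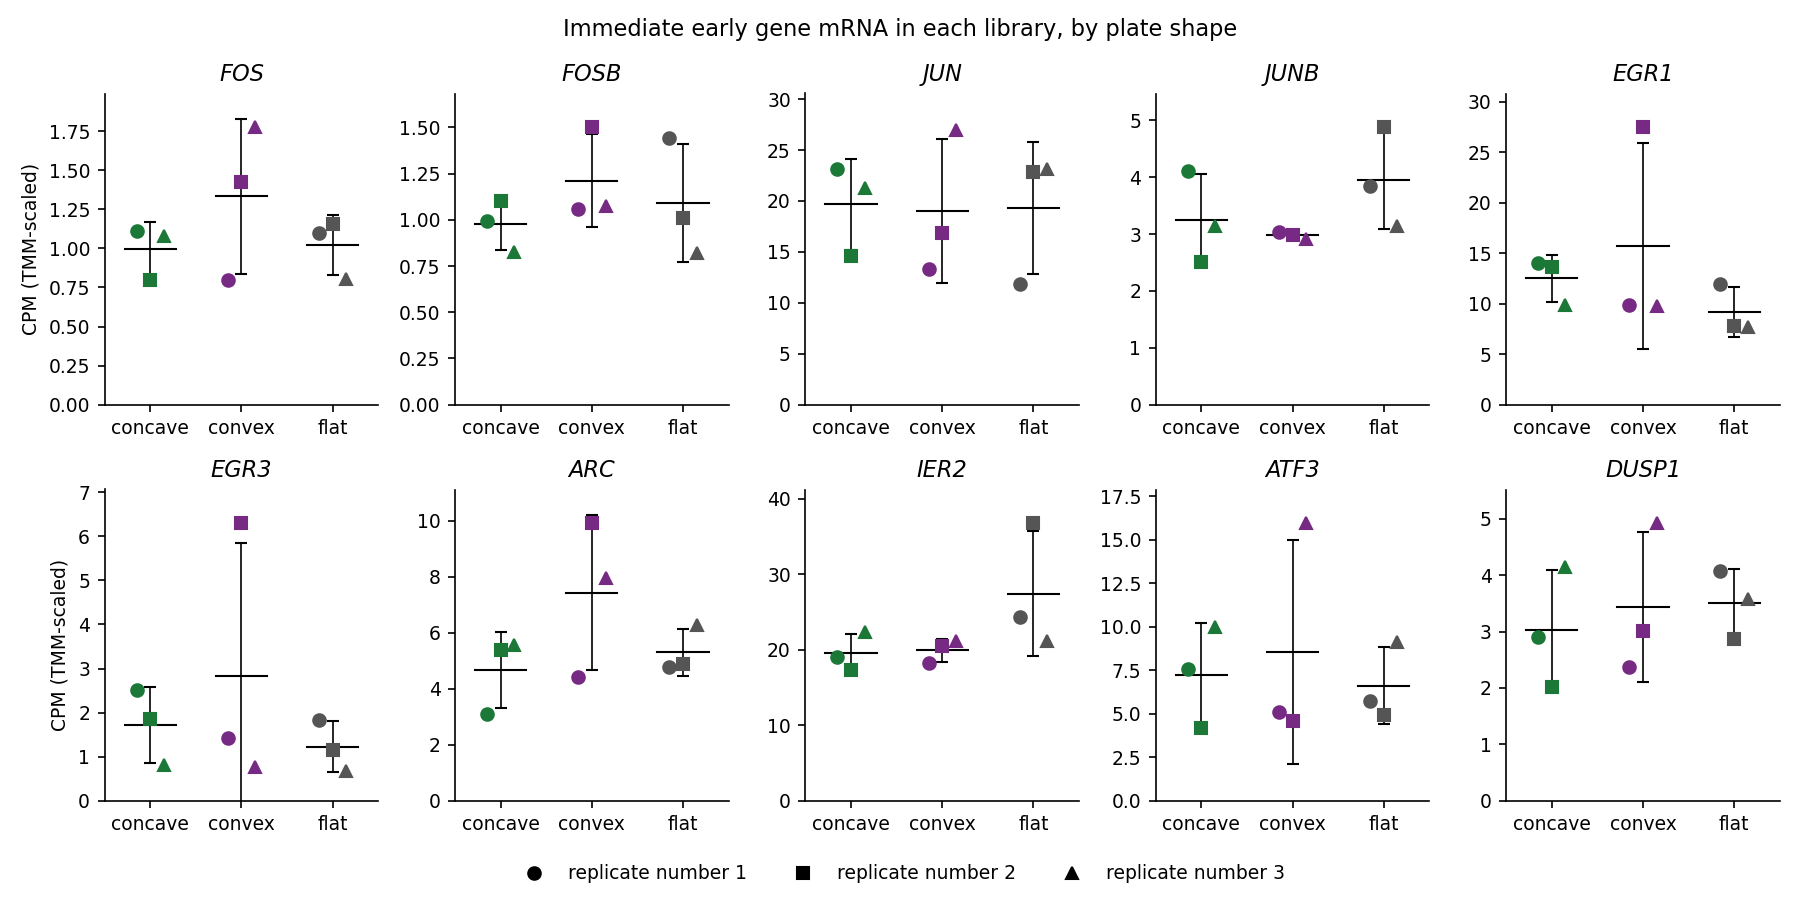
Expression of each gene in CPM (linear axis starting at 0) in the 3 libraries of each plate shape, marked by replicate number, with the mean and SD of each group. A bar that would pass below 0 is cut there. EGR1 and EGR3 each have convex 2 far above the other libraries, at 27.5 and 6.31 CPM, and the convex group of JUNB has the smallest SD, 0.0652 CPM.

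The intervals give the size of difference these libraries could bound. With concave over flat, 6 of the 10 members had a 95% interval wholly within 1 log2 unit of 0 on either side, as had 4 with convex over flat and 4 with concave over convex. The standard errors ran between 0.22 and 0.74 on the log2 scale, beside a median of 0.33 over all genes. These values come from the fit without replicate number. Same-numbered libraries deviated together for concave with convex and for convex with flat, so these bounds need not hold for a paired fit. Intervals from the blocked fit are not given here. The extremes of the members gathered in few libraries: convex 2 was highest for FOSB, EGR1, EGR3 and ARC, convex 3 for FOS, JUN, ATF3 and DUSP1, and flat 2 for JUNB and IER2. Concave libraries were highest for 0 of the 10 members. Of the 9 libraries, concave 2 was lowest for 4 members and flat 3 for 3. The share of all genes with an extreme in each library was not counted, so these counts cannot be read as particular to the members.

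ATF3 differed among the replicate numbers, which the labels give as 1 to 3 in each shape. With shape held in the model, edgeR called ATF3 among the 3 numbers at an adjusted p of 0.0203, the 1 call among the 10 members, where 11.8% of all genes were called. ATF3 averaged 6.14 ± 1.29 CPM at number 1, 4.55 ± 0.395 CPM at number 2 and 11.7 ± 3.72 CPM at number 3 (SD, n = 3 each). Its lowest value at number 3, 9.11 CPM in flat 3, was above its highest value at the other numbers, 7.58 CPM in concave 1. The share of all genes separated by number in this way was not counted. The adjusted p of ATF3 by edgeR ran between 0.00445 and 0.145 when single libraries were left out. It missed the threshold in 3 of these 9 fits, with 0.0964 without convex 2, 0.145 without convex 3 and 0.0504 without flat 1. Over all genes the count called, 2714, ran between 352 without convex 3 and 4999 without flat 2.

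EGR3 was lowest at number 3 in every shape. It averaged 1.92 ± 0.554 CPM at number 1, 3.11 ± 2.79 CPM at number 2 and 0.748 ± 0.0638 CPM at number 3 (SD, n = 3 each), and no value at number 3 reached the lowest at the other numbers, 1.16 CPM. The test among numbers gave an unadjusted p of 0.0209 and an adjusted p of 0.105 by edgeR. ARC was lowest at number 1, where all 3 libraries lay below the other 6, with 4.1 ± 0.872 CPM at number 1, 6.72 ± 2.78 CPM at number 2 and 6.58 ± 1.22 CPM at number 3. Its unadjusted p was 0.0246 and its adjusted p 0.115 by edgeR. For these separations by number, too, the share over all genes was not counted, so they cannot be read as particular to EGR3 or ARC. DESeq2 called EGR3 and ARC, with adjusted p-values of 0.00925 and 0.0392, but it called 4465 of all 23075 genes by number. At an unadjusted p under 0.05 by edgeR, 3 members passed, beside 28.4% of all genes. Without flat 2, EGR1, EGR3 and ARC had adjusted p-values of 0.0498, 0.0238 and 0.0133 by edgeR, where 4999 of 23755 genes were called. Without concave 2, EGR3 had 0.0442 by edgeR, where 3508 of 23715 genes were called. The other 6 members had adjusted p-values of 0.206 or more by edgeR, with the highest, 0.887, for FOS.

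**Figure D4:**
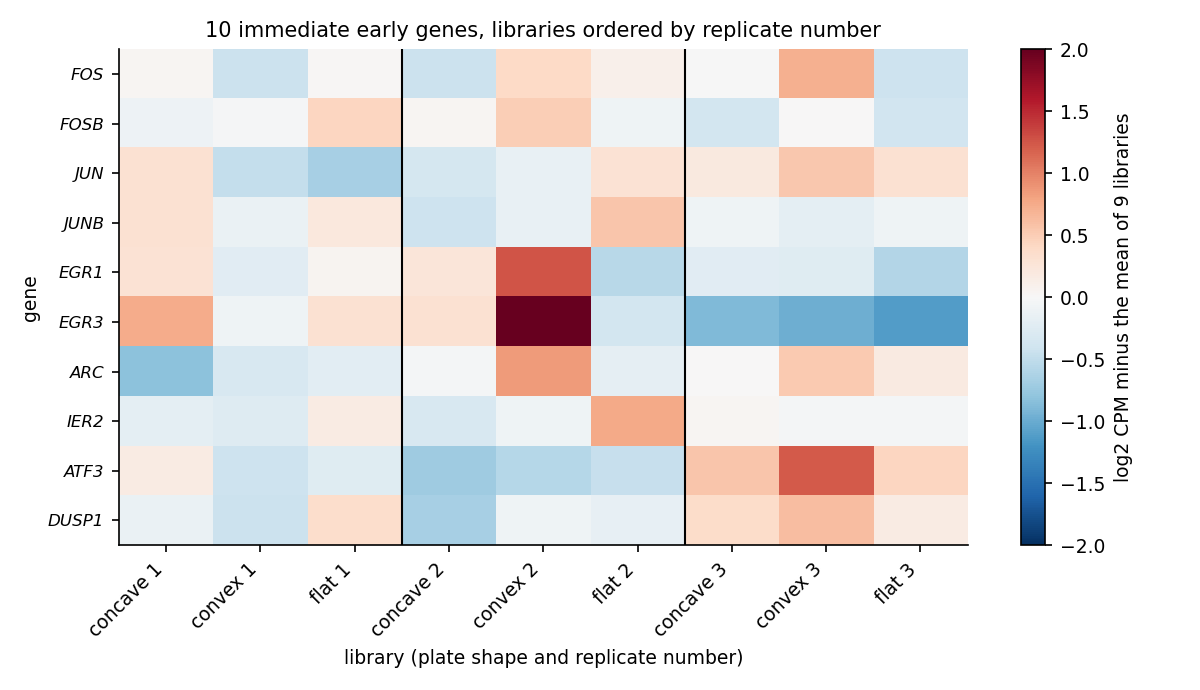
Log2 CPM of each gene minus its mean over the 9 libraries, with libraries in columns grouped by replicate number and red for higher, blue for lower. ATF3 is red and EGR3 blue in all 3 libraries numbered 3, and EGR1, EGR3 and ARC are red in convex 2. A value past the end of the scale takes its end colour.

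Markers of cell state moved with replicate number as well. Of 16 tested pluripotency markers 11 were called by number by edgeR, where 11.8% of all genes were, and the 18 listed summed to 6289 to 6537 CPM at number 3 against 4503 to 5177 CPM at numbers 1 and 2. Of those 11 called, 10 had their highest mean at number 3 and 1, SOX2, its lowest. The most abundant of that list, LIN28A and DNMT3B, were not called (adjusted p 0.639 and 0.103 by edgeR). Early neuroectoderm markers went the other way, with 12 of 17 tested called and a list sum of 2016 to 2364 CPM at number 3 against 3301 to 4870 CPM at numbers 1 and 2. Of those 12 called, 10 had their lowest mean at number 3, with SOX2, which is in both lists, counted again. NES, the most abundant of the neuroectoderm list, was not called (adjusted p 0.641 by edgeR). It averaged 873, 1019 and 915 CPM at numbers 1, 2 and 3. The list sum weighs abundant genes most, so it need not follow the list as a whole. Non-neural ectoderm and amnion markers had 3 of 6 tested called, with a list sum of 665 to 757 CPM at number 3 against 423 to 828 CPM at numbers 1 and 2. Fibroblast, endothelial and blood markers had 6 of 7 tested called, with 1265 to 1717 CPM at number 3 against 811 to 1489 CPM at numbers 1 and 2, without a common direction. Of those 6 called, 3 were highest and 3 lowest at number 3, and the sum followed the collagen gene COL1A1, which averaged 858 CPM at number 1, 502 CPM at number 2 and 1149 CPM at number 3. Of the markers listed, 4 of 18, 4 of 18, 7 of 12 and 6 of 14 in that order averaged under 1 CPM, and 0 were at 0 in every library. Without convex 3, the counts called in these lists were 2, 4, 0 and 2 in the same order. The part of these shifts in the ATF3 result was not tested. Nor was the share of all called genes highest or lowest at number 3 counted, for these lists or those below.

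In a wider list of 36 immediate early genes none was called by plate shape either, and replicate number separated some of them. Of 35 tested, 0 were called by edgeR in any comparison of shapes, and their log2 fold changes had medians of 0.07 with concave over flat, 0.16 with convex over flat and -0.10 with concave over convex. Among numbers 12 of 35 were called, 34.3% beside 11.8% of all genes. Of these, 10 had their highest mean at number 3 and 2 at number 1, directions not counted over all called genes. The count ran between 4 without convex 3 and 16 without flat 2, and fell to 7 when either concave 1 or convex 1 was dropped and to 8 when either concave 3 or convex 2 was. CCN1 and CCN2, secreted matricellular proteins and known targets of YAP and SRF, were among those highest at number 3. CCN2 averaged 5.56 ± 1.32 CPM at number 1, 8.93 ± 2.74 CPM at number 2 and 43.1 ± 14.9 CPM at number 3 (SD, n = 3 each; adjusted p 0.00158 by edgeR). CCN1 averaged 12.9 ± 2.77, 16.5 ± 4.56 and 62.6 ± 16.9 CPM at numbers 1, 2 and 3 (adjusted p 0.00203 by edgeR). PHLDA1, a pleckstrin homology protein, had 31.5 ± 1.71, 28.8 ± 8.14 and 94.1 ± 9.24 CPM in the same order (adjusted p 0.00158 by edgeR). The antiproliferative gene BTG2 ran against them, with 16.7 ± 2.58, 16.0 ± 5.68 and 4.75 ± 0.624 CPM (adjusted p 0.00263 by edgeR). IER5 and JUND had the smallest p by shape in this list, each with an adjusted p of 0.971 by edgeR. JUND averaged 96.6 ± 19.3 CPM in concave, 95.4 ± 8.78 CPM in convex and 146 ± 62.0 CPM in flat (SD, n = 3 each), where flat 2 alone held 215 CPM.

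**Figure D5:**
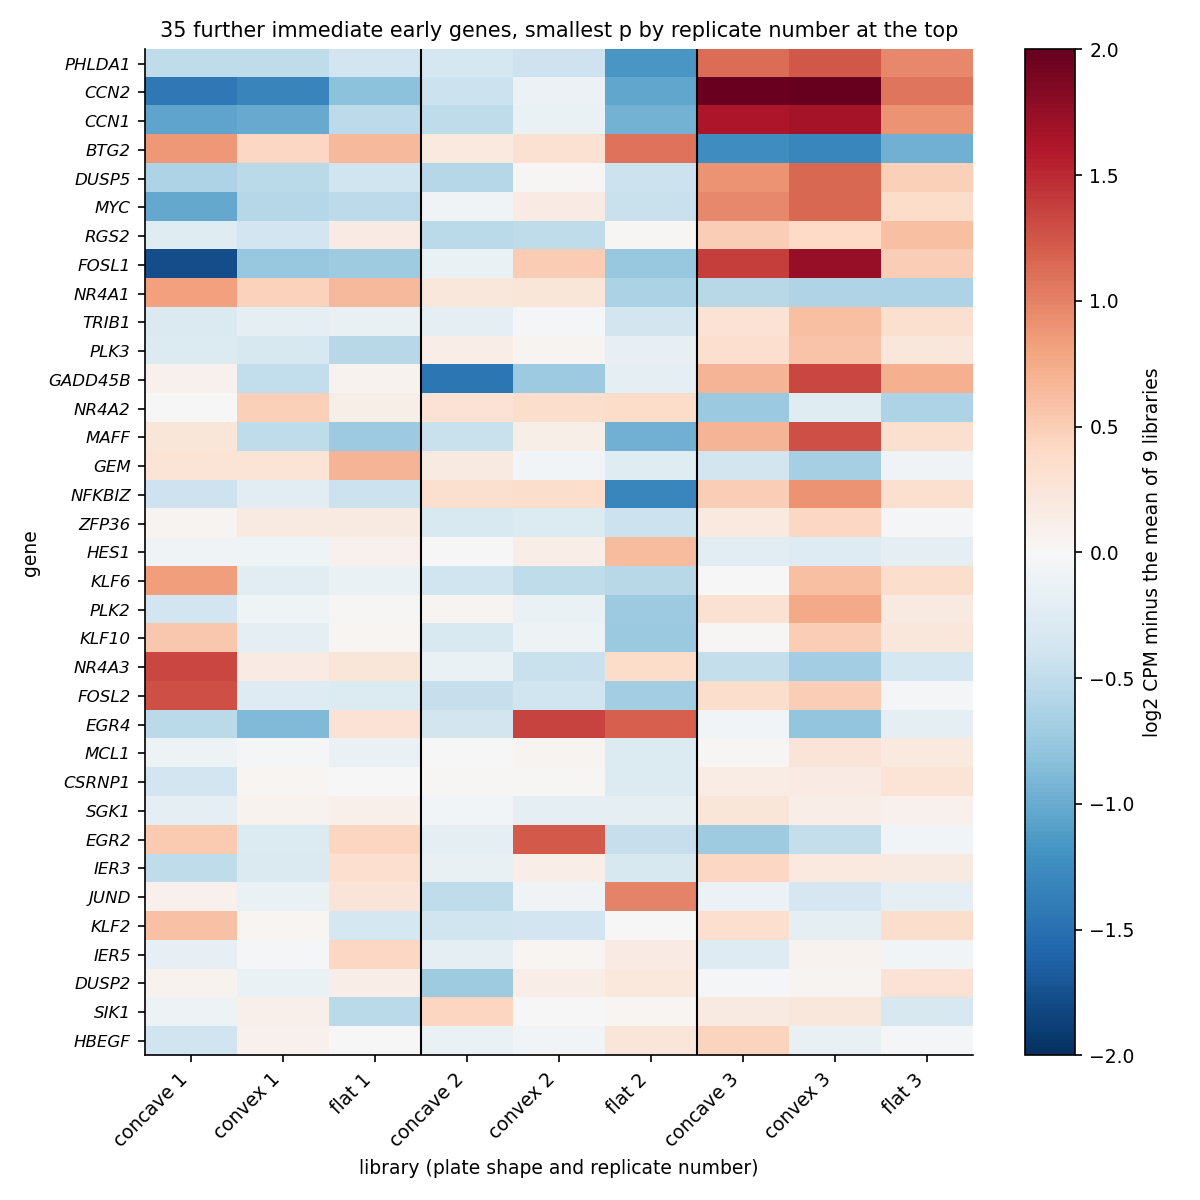
Log2 CPM of 35 further immediate early genes minus the mean of the 9 libraries, genes ordered by their p among replicate numbers and libraries grouped by number. PHLDA1, CCN2 and CCN1 at the top are red in all 3 libraries numbered 3, and BTG2 is blue there. A value past the end of the scale takes the end colour.

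Some partners that AP-1 proteins dimerise with also had their highest mean at number 3. Of 11 tested AP-1 partners 4 were called by number by edgeR, beside 11.8% of all genes. All 4 had their highest mean at number 3, a direction not counted over all called genes. FOSL1, already counted in the wider list and a FOS relative lacking its activation domain, averaged 0.853 ± 0.309 CPM at number 1, 1.67 ± 0.725 CPM at number 2 and 4.22 ± 1.68 CPM at number 3 (SD, n = 3 each; adjusted p 0.0115 by edgeR). MAFG, JDP2 and MAFK, small or repressive leucine zipper proteins, had adjusted p-values of 0.0328, 0.0359 and 0.039 by edgeR. With 1 library left out, MAFG lost its call in 6 of the 9 fits, MAFK in 5, JDP2 in 4, ATF3 in 3 and FOSL1 in 2, and 0 partners were called without convex 1. MAFG and MAFK also lost their calls by library size only, with adjusted p-values of 0.0715 and 0.0593 by edgeR, and MAFG without a shape term, with 0.0544. FOSL2 had its highest value, 12.8 CPM, in concave 1, and all other libraries lay at 7.34 CPM or below.

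Among 9 tested MAP kinase phosphatases beside DUSP1, 3 were called by number by edgeR, beside 11.8% of all genes. DUSP5 is also one of the wider list. DUSP6, a cytoplasmic phosphatase and a feedback target of FGF signalling, averaged 1.51 ± 0.478 CPM at number 1, 6.07 ± 3.01 CPM at number 2 and 8.23 ± 2.88 CPM at number 3 (SD, n = 3 each; adjusted p 0.00357 by edgeR). DUSP5, a nuclear phosphatase, averaged 6.79 ± 0.511, 7.88 ± 1.78 and 17.7 ± 3.98 CPM at numbers 1, 2 and 3 (adjusted p 0.00445 by edgeR). DUSP9 had the reverse order, with 2.6 ± 0.555, 1.85 ± 0.766 and 0.884 ± 0.157 CPM (adjusted p 0.014 by edgeR). DUSP5 lost its call in 1 of the 9 fits with 1 library left out and DUSP9 in 3, while 1 of the 9 phosphatases was called without convex 3. DUSP1 was not called, with an adjusted p of 0.206 by edgeR.

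Of 21 tested genes for serum response and CREB input, 0 were called by shape or by number by edgeR. SRF averaged 96.7 ± 28.6 CPM in concave, 106 ± 22.3 CPM in convex and 99.4 ± 14.3 CPM in flat (SD, n = 3 each). By number its values were 86.1 ± 9.4, 90.7 ± 8.62 and 125 ± 8.35 CPM at numbers 1, 2 and 3, with an adjusted p of 0.0507 by edgeR. SRF was called by number under 6 alternatives that kept all 9 libraries. Its adjusted p-values there were 0.041 to 0.0475 in edgeR and limma voom fits and 0.00883 by DESeq2. It was also called without flat 2, with 0.0175 by edgeR. ELK3 was called by number with no filter (adjusted p 0.033 by edgeR) and by DESeq2 (0.0184). Without flat 2, 2 of the 21 were called. Of 8 genes for decay of AU-rich mRNAs, the route that clears many immediate early transcripts, 0 were called either way by edgeR. ZFP36, which binds such elements, averaged 6.09 ± 1.05 CPM in concave, 6.72 ± 1.56 CPM in convex and 5.79 ± 1.18 CPM in flat.

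ATF3 is itself a target of ATF4, the factor of the integrated stress response. Of 10 tested ATF4 targets, ATF4 included, 4 were called by number and 0 by shape by edgeR, beside 11.8% and 0% of all genes. Of the 4 called, 3 were highest at number 3, a direction not counted over all called genes. CHAC1, a glutathione-degrading enzyme, averaged 8.81 ± 1.54 CPM at number 1, 6.55 ± 0.276 CPM at number 2 and 24.7 ± 4.29 CPM at number 3 (SD, n = 3 each; adjusted p 0.000983 by edgeR). SESN2, a leucine-sensing regulator of mTORC1, averaged 31.6 ± 5.02, 28.3 ± 2.07 and 45.8 ± 1.62 CPM at numbers 1, 2 and 3 (adjusted p 0.0197 by edgeR). ATF4 itself averaged 210 ± 27.8, 248 ± 59.5 and 338 ± 9.93 CPM (adjusted p 0.038 by edgeR), and DDIT4, an mTORC1 inhibitor, was highest at number 1. CHAC1 was called with any 1 library left out, whereas ATF4 and DDIT4 lost their calls in 6 of those 9 fits and SESN2 in 5. ATF4 also lost its call by library size only (adjusted p 0.0549 by edgeR) and without a shape term (0.0652), and DDIT4 with no filter (0.293) and without a shape term (0.0744). The list summed to 1285 to 1322 CPM at number 3, within the 973 to 1693 CPM at numbers 1 and 2. The part of ATF4 in the ATF3 result was not tested.

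Likeness between members was measured over the 9 libraries. Over the 45 pairs, JUNB and IER2 were closest, with a root mean square difference of 0.20 between their centred log2 CPM over the 9 libraries. A gene that did not vary would lie 0.28 from JUNB and 0.30 from IER2. FOS and DUSP1 were next at 0.33, where a constant gene would lie 0.37 from FOS and 0.39 from DUSP1. EGR3 and ATF3 were farthest apart, at 1.42. Among 11949 other genes at 5 CPM or more, the pattern nearest to FOS was that of NUAK2, a kinase of the AMPK family, at 0.26, before TNRC18 (0.28), HSD17B7 (0.28) and MVK (0.28). The median gene lay 0.45 from FOS and a constant one 0.37. ARRDC4 was nearest to JUN at 0.18, before ELMO3 (0.23), ZNF296 (0.24) and DUSP8 (0.24), against a median of 0.47 and 0.40 for a constant gene. FBXL14 was nearest to EGR1 at 0.28, before SCN4B (0.29), FZD1 (0.30) and FBN2 (0.32), against a median of 0.59 and 0.53 for a constant gene. All share the same 9 libraries, and no test was made of these likenesses.

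Some members share their place in the genome with other genes, and whether counting used strand is not given in the sources used here. IER2 (chr19:13150415-13154908, GRCh38) overlaps the antisense gene AC011446.2 over 756 exon bases, 24.6% of its own, and that gene held 0 counts in all 9 libraries. EGR3 overlaps AC055854.1 over 164 exon bases, 3.69% of its own, and that gene reached at most 0.0682 CPM. FOSB, JUNB and DUSP1 each overlap a gene on the other strand but share 0 exon bases with it.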

How the data were processed

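Strand-specific libraries of poly-T selected mRNA were made with a TruSeq kit, per the labels' protocols. The authors deposited unnormalized read counts for each Ensembl gene. HISAT2, featureCounts and the build GRCh38 are named in the submitters' processing notes; their versions and the strand setting are not given in those sources. Of 62710 genes, 62639 had a symbol and 58220 coordinates in GENCODE v29. The tests used edgeR 4.0.16 under R 4.3.3 (filterByExpr, TMM, robust glmQLFit, glmQLFTest, shape as factor, all 9 libraries, 23075 genes, Benjamini-Hochberg adjustment, calls at 0.05). TMM factors were 0.931 to 1.06, and the common coefficient of biological variation was 0.33. Replicate number was tested beside shape. CPM are TMM-scaled, and centred log2 CPM use a prior count of 0.5. Depth was 49420082 to 64763412 counts, so 3 counts, the floor for a count of 0, correspond to 0.0463 to 0.0607 CPM; this covers counting error only. DESeq2 1.42.0, limma 3.58.1 (voom), other scalings and filters and left-out libraries were alternatives. Promoter windows are RefSeq's.

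The members are fixed by symbol; named genes of the other lists are up to 4 with the smallest p by number and 2 by shape at a mean of 1 CPM or more, 4 nearest to FOS, JUN and EGR1, and 3 markers a list. Single libraries named in the text were picked out after their values were seen. Members and lists were chosen with earlier results of these data known. The replicate numbers carry no stated meaning in the labels. Same-numbered libraries deviated together with r of 0.54, 0.264 and 0.573 for concave and convex, and 0.326, 0.361 and 0.581 for convex and flat, all above 0.1, but 0.337, 0.00829 and 0.305 for concave and flat, so by this check the numbers pair the libraries in the first 2 comparisons. The values reported are from the fit without the block, and the blocked fit was an alternative. Each of the 9 columns carried a group and number of 1 library, and 0 other per-sample columns were present. 1 gene that the naming rule picks is not reported here.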

Additional observations from a re-analysis of the deposited data

Results flagged for a closer look

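Groups of 3 libraries are too small for a test of single outlying values, so each member was examined over all 9 libraries, where a gap beyond 0.493 of the whole range is reached by chance in about 1 of 20 groups. That applies to 10 members that share the libraries. EGR1 stood out in convex 2 with 27.51 CPM, where the next library had 14.06 CPM and the gap was 0.678 of the range. EGR3 stood out in the same library with 6.307 CPM, against 2.512 CPM in the next, a gap of 0.675. IER2 stood out in flat 2 with 36.8 CPM, against 24.32 CPM in the next, a gap of 0.641. ATF3 stood out in convex 3 with 15.96 CPM, against 10.0 CPM in the next, a gap of 0.505.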

How the results depend on the processing

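Between plate shapes, 0 genes were called by edgeR under each other scaling and filter, by limma voom, in fits to a comparison's own 6 libraries, and with each library left out, except that DESeq2 called 1 gene for convex against flat. With libraries numbered 1 and 2 only, chosen after seeing the data, 0 were called too, and 5300, 5081 and 114 genes had an unadjusted p under 0.05 with concave over flat, convex over flat and concave over convex. With the replicate block, 0 were called, with 2046, 4222 and 147 genes at an unadjusted p under 0.05, and no member's call changed; pairing of concave with flat was not borne out at number 2. By replicate number, 2714 genes became 4087 with no filter, where 41037 genes were tested, and 4465 with DESeq2, the cause of which was not tested. Leaving out 1 library gave 1004 (concave 1), 1454 (concave 3), 1043 (convex 1), 1150 (convex 2), 352 (convex 3), 1627 (flat 1) and 4999 (flat 2).

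No member was called by shape under any alternative (smallest adjusted p 0.133), but 41 of 540 log2 fold changes turned sign, all uncalled; the cause was not tested. By library size only, FOS for concave against flat was 0.0094, and JUN and DUSP1 for convex against flat 0.028 and 0.0014. With numbers 1 and 2 only, FOS and ATF3 for convex against flat were -0.033 and -0.16, and ATF3 for concave against convex 0.28. The other turns came with 1 library left out. For concave against flat, FOS then ran between -0.19 and 0.11, FOSB -0.34 and 0.095, JUN -0.23 and 0.21, ARC -0.33 and 0.034, ATF3 -0.17 and 0.43, and DUSP1 -0.51 and 0.011. For convex against flat, FOSB ran between -0.051 and 0.41, JUN -0.35 and 0.18, EGR3 -0.19 and 1.66, ATF3 -0.45 and 0.65, and DUSP1 -0.38 and 0.17. For concave against convex, JUN ran between -0.14 and 0.38, JUNB -0.071 and 0.29, EGR1 -0.58 and 0.36, EGR3 -1.16 and 0.68, IER2 -0.12 and 0.059, ATF3 -0.52 and 0.58, and DUSP1 -0.46 and 0.16. Counting error was largest for FOS and FOSB among the members, at 12.3% and 12.4%.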
